A study of Mus musculus with 32 samples.

Results

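GABA-A receptor subunits were followed across the hippocampus of 8 inbred mouse strains. The subunits were 7 named genes, Gabra2, Gabra3, Gabra4, Gabra6, Gabrb1, Gabrb2 and Gabrg1, and every probe set annotated with one of them as its single gene symbol was taken. This gave 7 probe sets for 6 genes, out of 12422 non-control probe sets and 8251 genes with a single symbol. Gabra6 had 2 probe sets, and no probe set carried Gabra4 as its single symbol. The rule that assigned probe sets to these genes read symbols only, not signals. The genes and tests were chosen with earlier results of these data known, in which Gabra2 stood apart in C57BL/6J. The Gabra2 tests below therefore describe that difference and are not independent support for it. The strains were C57BL/6J, DBA/2J, BALB/cByJ, SJL/J, A/J, FVB/NJ, C3H/HeJ and 1 more, called the eighth strain here, whose full name labels the figures and stands with the processing steps. The mice were untreated and were killed by cervical dislocation. The sources used here do not give their age or sex. Each strain was represented by 1 pool of total RNA from 6 mice and 1 cDNA, from which cRNA was prepared 2 times, and each preparation was hybridised to 2 Affymetrix U74Av2 arrays, 32 arrays in all. Repeats within a strain are thus technical, and every p-value below measures the spread between preparations and hybridisations, not between animals. Values are array signals on the log2 scale, and signals of different probe sets were not set against each other.

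GABA-A receptors are chloride channels built from 5 subunits, and they carry most fast inhibition in the brain. The binding sites for GABA lie between alpha and beta subunits, while the gamma subunit, together with certain alpha subunits, forms the site for benzodiazepines and is needed for clustering at synapses. In the hippocampus the alpha2 subunit, encoded by Gabra2, is enriched at synapses on the axon initial segment of pyramidal cells. The alpha4 subunit belongs mainly to receptors outside synapses, and the alpha6 subunit is typical of cerebellar granule cells. Subunit genes lie in clusters. In the RefSeq order of the mouse assembly GRCm38.p6, Gabrg1, Gabra2, Gabra4 and Gabrb1 lie next to each other on chromosome 5, with Cox7b2 between Gabra2 and Gabra4. Gabra6 and Gabrb2 share a cluster on chromosome 11, and Gabra3 lies on chromosome X between Gabre and Gabrq.

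The chromosome 5 cluster held both subunits that passed a test across strains, Gabra2 and Gabrb1, beside Gabrg1, which did not, and the bases upstream of these 3 genes are therefore shown. Each run gives the 250 bases before an annotated start in RefSeq, build GRCm38.p6, written 5′ to 3′ on the gene's strand. The windows are chr5:71095850-71096099 on the minus strand for Gabra2, chr5:70842618-70842867 on the minus strand for Gabrg1 and chr5:71699682-71699931 on the plus strand for Gabrb1, where the downstream one of its 2 starts was taken. Capitals mark a motif match.
Gabra2: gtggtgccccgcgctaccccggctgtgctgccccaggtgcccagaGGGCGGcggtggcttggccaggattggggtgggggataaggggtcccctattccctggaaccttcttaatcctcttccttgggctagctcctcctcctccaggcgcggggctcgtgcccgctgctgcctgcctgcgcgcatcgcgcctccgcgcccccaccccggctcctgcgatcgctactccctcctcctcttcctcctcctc
Gabrg1: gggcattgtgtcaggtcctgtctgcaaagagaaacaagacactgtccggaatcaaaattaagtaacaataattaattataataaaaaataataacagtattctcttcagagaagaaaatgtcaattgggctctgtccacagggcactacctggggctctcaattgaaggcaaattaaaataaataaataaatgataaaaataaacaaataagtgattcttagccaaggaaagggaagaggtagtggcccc
Gabrb1: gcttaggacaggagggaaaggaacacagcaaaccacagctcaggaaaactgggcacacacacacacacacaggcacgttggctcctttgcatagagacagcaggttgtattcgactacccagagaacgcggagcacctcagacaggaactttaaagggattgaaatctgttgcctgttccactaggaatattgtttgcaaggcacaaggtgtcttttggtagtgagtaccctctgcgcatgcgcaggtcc
The Gabra2 window is 70.0% G and C and holds 18 CpG pairs, against medians of 52.4% and 6 over 32851 promoter windows of the same length. The Gabrg1 window is 35.6% G and C with 1 CpG, and the Gabrb1 window is 50.8% with 6. At the upstream start of Gabrb1, not shown, the window is 64.4% G and C with 18 CpG pairs, as many as at Gabra2. Both strands were searched for 3 motifs. The letters TATAAA stood for a TATA box and occurred in 12.4% of all windows. For the GC box, the letters GGGCGG occurred in 32.7% of them. A cyclic AMP response element was read as TGACGTCA, and 1.55% of windows held it. Gabra2 had 1 GC box, and the windows of Gabrb1 and Gabrg1 held none of these letters. These matches describe letters in a window and were not tied to any signal.

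Array medians of the deposited signal lay between 29.4, on array 1 of C57BL/6J, and 43.7. Control probe sets for the sense strand of actin and Gapdh read above 6 (log2) on 11 arrays, at 6.95 to 7.84, and at 4.91 to 5.64 on the other 21. The 11 were all 4 BALB/cByJ arrays, array 1 of FVB/NJ, and the first preparation of SJL/J, C3H/HeJ and A/J. The 3′ minus 5′ difference of the actin controls (log2) was 0.25 to 0.68 in C57BL/6J and -0.18 to 0.46 in other strains. Its highest value was on array 2 of C57BL/6J. For Gapdh it was -0.47 to -0.11 and -0.52 to -0.02. Of 12 hippocampal neuron marker genes on the array, 12 lay in the tested range, among them Nrgn, which encodes neurogranin, at a mean signal of 1076. The titles also carry a day and do not say which step was done on that day. It was coded A to F, and days A to D each held 7 or 8 strains with 1 array apiece. A probe set was tested where its mean signal was among the highest 60%, which left 7453 probe sets with a lowest mean of 23.7. All 5 probe sets of Gabra2, Gabra3, Gabrb1, Gabrb2 and Gabrg1 passed, and both of Gabra6 did not. A moderated F-test in limma across the 8 strains, adjusted by Benjamini-Hochberg over all tested probe sets, called 1 of the 5, Gabra2, where 4.63% of all tested probe sets were called. With the preparation number as a block it called 2 of the 5, Gabra2 and Gabrb1, against 18.9% of all. The median range of strain means was 0.96 over the 5 probe sets and 0.68 over all tested ones.

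**Figure D1:**
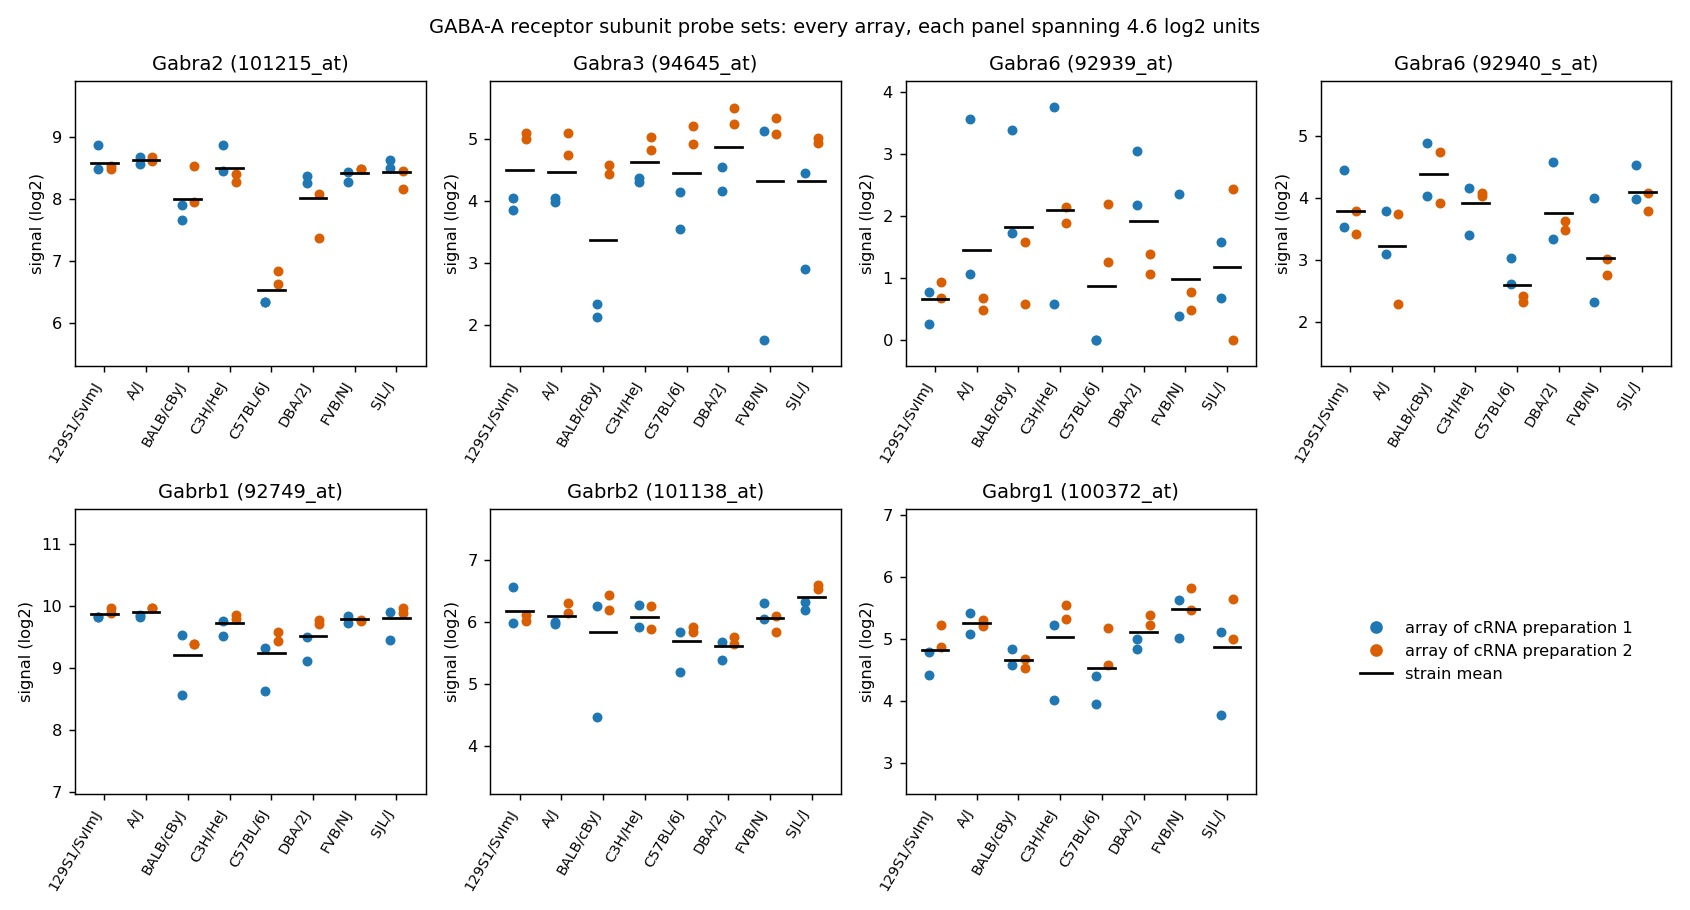
Signal (log2) of the 7 probe sets on every array, by strain. Points are arrays, coloured by cRNA preparation, black lines are strain means, and every panel spans the same number of log2 units. For Gabra2 the 4 C57BL/6J arrays, at 6.33 to 6.83, lie below all others, and for Gabra3 the second preparation is the higher one in all 8 strains.

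Among the alpha subunits, Gabra2 (mean signal 307.2) was low in C57BL/6J, and no pair among the other 7 strains was called different. The 4 C57BL/6J arrays read 6.33, 6.34, 6.62 and 6.83. The BALB/cByJ arrays read 7.89, 7.65, 8.53 and 7.95, and the DBA/2J arrays 8.25, 8.37, 7.36 and 8.07. These last 2 strains came next, and their 8 arrays all stood above the 4 of C57BL/6J. The remaining strains were higher still and close together. Arrays of FVB/NJ read 8.43, 8.27, 8.48 and 8.48, and those of SJL/J 8.50, 8.63, 8.15 and 8.45. C3H/HeJ gave 8.86, 8.45, 8.40 and 8.26. The highest strain means belonged to the eighth strain and A/J. Their arrays read 8.47, 8.86, 8.52 and 8.48 in the eighth strain and 8.67, 8.56, 8.60 and 8.67 in A/J. No array of another strain overlapped with C57BL/6J, a separation that 28 of the 7453 tested probe sets showed (0.376%). The probe sequences were not compared with the sequences of the strains here, so these values are hybridisation signals of 1 probe set. In bulk tissue, fewer cells of a type and less RNA per cell cannot be told apart.

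The strain mean of Gabra2 was 6.53 ± 0.28 (SD, n = 2 preparations) in C57BL/6J and 8.62 ± 0.01 (SD, n = 2) in A/J, a range of 2.09 or 4.27-fold. Only 1.58% of tested probe sets had a range as wide, and without C57BL/6J the range of Gabra2 was 0.62. The F-test gave an adjusted p of 5e-04 by limma, and 6.5e-05 with the preparation block. The difference of C57BL/6J from the mean of the other 7 strains was -1.84 ± 0.17 (SE), 6.53 against 8.37 or 3.57-fold (limma, adjusted p = 2.3e-05), where 1.33% of tested probe sets were called lower in this strain. No other strain was called against the rest for Gabra2. A/J was 0.56 above the other strains (adjusted p = 0.35) and the eighth strain 0.51 above (adjusted p = 0.43). Of the 28 pairs of strains, 7 were called for Gabra2, where 1.57% of all probe set and pair combinations were. All 7 involved C57BL/6J, with differences of 1.48 to 2.09 (2.78 to 4.27-fold) and adjusted p of 0.00011 to 0.0029. In the order of the strain means the single step that passed was that from C57BL/6J to the next lowest strain, BALB/cByJ (1.48 ± 0.22 SE, adjusted p = 0.0018), a pair for which 7.39% of tested probe sets were called. Differences between the other neighbours were 0.01 to 0.40 (adjusted p 0.92 to 1).

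**Figure D2:**
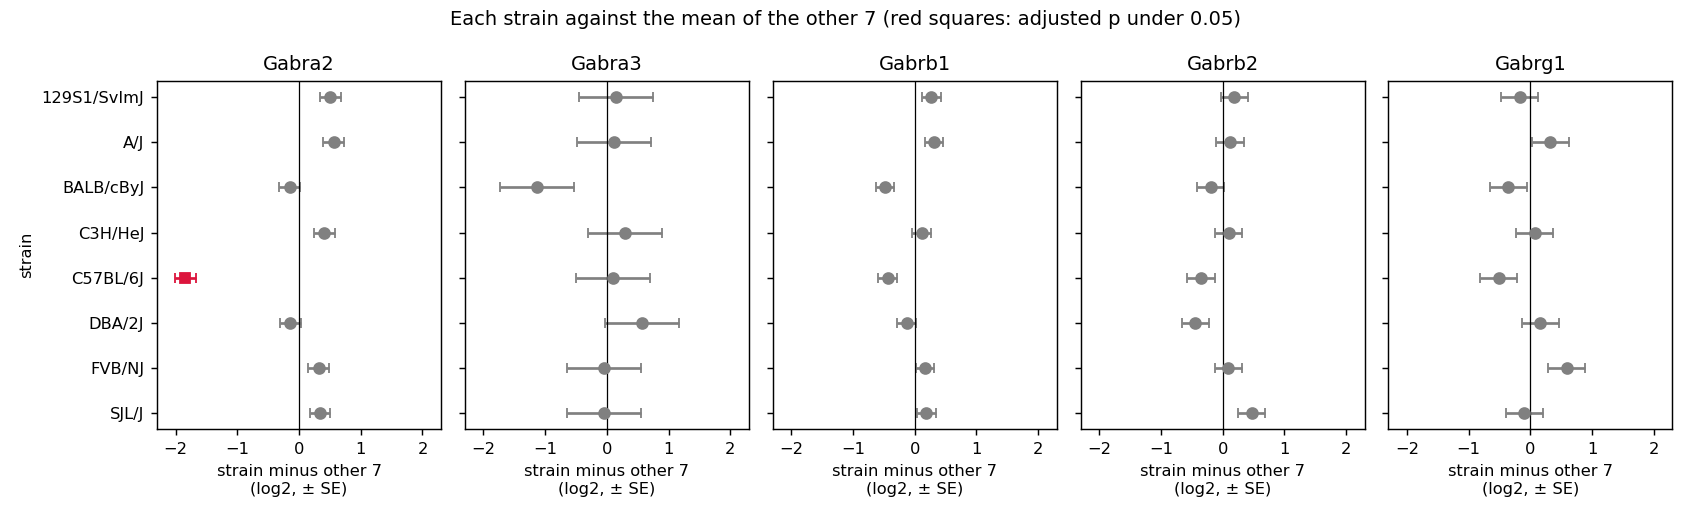
Difference between each strain and the mean of the other 7 (log2, with its SE) for the 5 tested probe sets. Red squares mark an adjusted p under 0.05, which applied only to Gabra2 in C57BL/6J, at -1.84.

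The low Gabra2 signal in C57BL/6J was present in both preparations and on each of days A to D. Against the arrays of other strains with the same title day, the C57BL/6J array differed by -2.11 on day A, -2.08 on day B, -1.59 on day C and -1.57 on day D. With single arrays and the day as a block the difference was -1.80 ± 0.13 (SE, limma adjusted p = 5.6e-11). That fit counts the 2 arrays of a preparation as independent, which they are not, so its p overstates the certainty. The difference was also there without the 11 arrays of high sense-strand controls, at -1.84 (adjusted p = 0.00054), and C57BL/6J itself had none of those arrays. Strain accounted for 84.6% of the variance of Gabra2 over the 32 arrays, preparation for 6.94% and array for 8.51%. Over all tested probe sets the median shares were 6.82%, 20.9% and 58.2%.

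**Figure D3:**
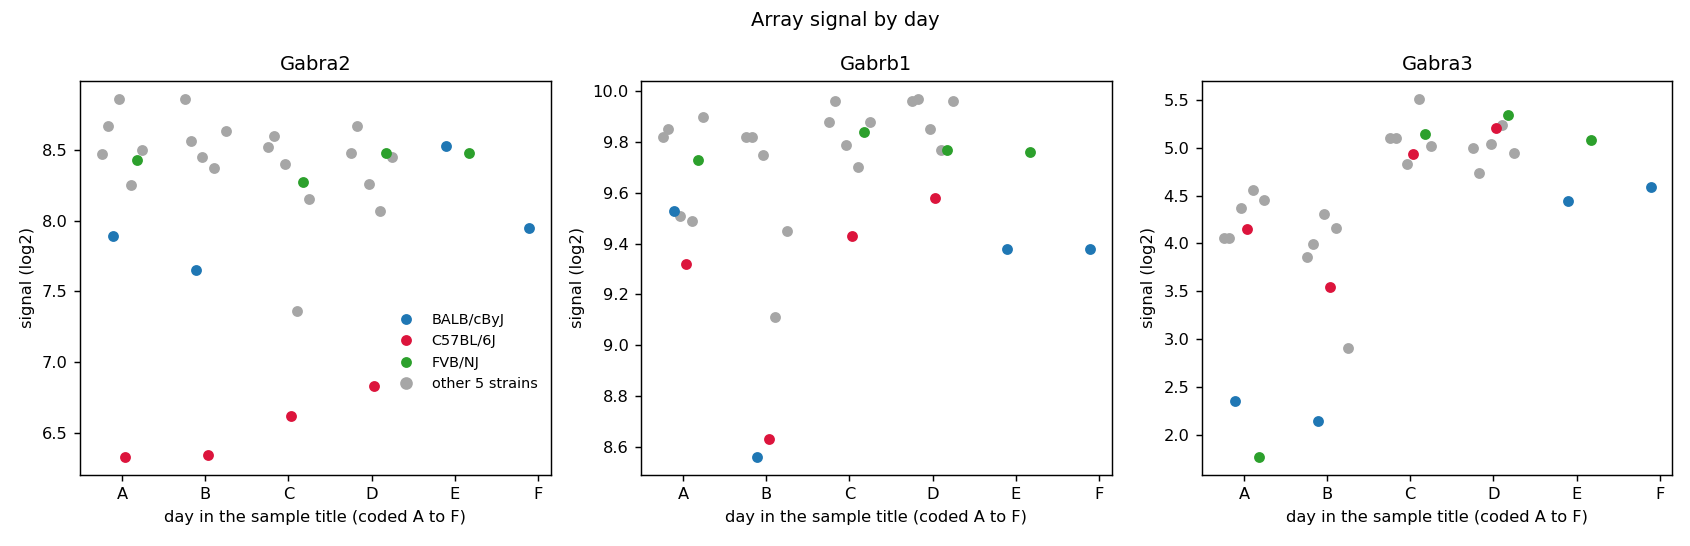
Array signal (log2) of Gabra2, Gabrb1 and Gabra3 by the day in the sample title, coded A to F. Each point is 1 array. On days A to D the C57BL/6J array is the lowest for Gabra2, while for Gabra3 the arrays of days C to F lie above nearly all those of days A and B.

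Gabra3 encodes the alpha3 subunit, another partner of gamma subunits in benzodiazepine-sensitive receptors. Its probe set had a mean signal of 24.2, just above the limit for testing, and it did not pass the F-test (adjusted p = 0.91, and 0.2 with the block). Its signal differed more between the preparations than between strains. Outside FVB/NJ the first preparation carries days A and B and the second carries later days. Preparation and day therefore cannot be told apart for this shift. The second preparation was higher than the first in all 8 strains, by 0.59 to 2.27 with a median of 1.15. Among all tested probe sets 14.3% were higher in all 8 strains, the median difference was 0.08, and 0.174% had a median as large as that of Gabra3. Nested variance shares for Gabra3 were 0% for strain, 59.9% for preparation and 40.1% for array.

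The lowest Gabra3 arrays were in BALB/cByJ and FVB/NJ. BALB/cByJ read 2.35 and 2.14 in the first preparation and 4.44 and 4.59 in the second, with a strain mean of 3.38 ± 1.61 (SD, n = 2). FVB/NJ read 1.77 on array 1 and 5.14, 5.34 and 5.08 on arrays 2 to 4. Array 2 of FVB/NJ belongs to the first preparation by its number, and its title carries day C, which it shares with arrays 3 of other strains. In the remaining 6 strains the first preparation gave 2.91 to 4.56 and the second 4.74 to 5.51. The difference of BALB/cByJ from the other 7 strains was -1.13 ± 0.60 (SE) (limma, adjusted p = 0.22). With the preparation block the same difference had an SE of 0.31 and passed (adjusted p = 0.014), where 16.6% of tested probe sets were called lower in BALB/cByJ. Of the 28 pairs 0 were called for Gabra3, and 1 was with the block, against 6.13% of all probe set and pair combinations. Without the block 0 pairs had an unadjusted p under 0.05, and the share of all combinations under that limit was not counted. The BALB/cByJ difference was not called with the block once array 2 of FVB/NJ was counted in the second preparation.

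Gabra6, the subunit gene of cerebellar granule cells, stayed below the limit for testing with both probe sets. The first, with the plain suffix _at, had a mean signal of 3.475, with 3 of 32 arrays at the floor and a range of 0 to 3.75 on the log2 scale around a median of 1.07. The second, whose suffix _s_at marks probes that can read more than 1 transcript, had a mean signal of 13.7 and arrays between 2.29 and 4.89. On the second probe set the C57BL/6J arrays read 2.61, 3.04, 2.43 and 2.32, a mean of 2.60 ± 0.31 (SD, n = 2). BALB/cByJ was highest at 4.39 ± 0.09 (SD, n = 2). In a fit of all probe sets with no limit on signal, Gabra6 did not pass the F-test by the second probe set (adjusted p = 0.22, and 0.06 with the block), where 2.6% and 9.3% of all probe sets were called, nor by the first (0.8 and 0.57). On the second probe set C57BL/6J differed from the others by -1.15 ± 0.33 (SE) (adjusted p = 0.14, and 0.047 with the block), where 0.781% and, with the block, 1.99% of probe sets were called lower. BALB/cByJ differed by 0.90 ± 0.33 (SE) (0.1, and 0.045 with the block), where 2.18% and 10.7% were called higher. The 2 probe sets of Gabra6 had a Pearson correlation of 0.51 over the 8 strain means, and on the first the eighth strain was lowest and C3H/HeJ highest. Of 8 cerebellar marker genes on the array 5 lay in the tested range, and the level of that list, over all 10 of its probe sets, stands with the other marker lists below.

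Among the beta subunits, which contribute to the GABA site, Gabrb1 (mean signal 812.2) was lowest in BALB/cByJ and C57BL/6J. The BALB/cByJ arrays read 9.53, 8.56, 9.38 and 9.38, and those of C57BL/6J 9.32, 8.63, 9.43 and 9.58. DBA/2J followed with 9.49, 9.11, 9.70 and 9.77. In the other 5 strains all arrays lay between 9.45 and 9.97, so that these overlapped with all 3 low strains. Strain means ran from 9.21 ± 0.24 in BALB/cByJ and 9.24 ± 0.38 in C57BL/6J to 9.87 ± 0.07 in the eighth strain and 9.90 ± 0.09 in A/J (SD, n = 2 each), a range of 0.68 or 1.61-fold.

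The F-test for Gabrb1 gave an adjusted p of 0.16 by limma and passed with the preparation block (0.0051). BALB/cByJ differed from the other strains by -0.48 ± 0.15 (SE) (adjusted p = 0.059, and 0.0036 with the block), where 5.77% and, with the block, 16.6% of tested probe sets were called lower. The call without the block also passed with each array centred on its median (-0.63, adjusted p = 0.0073), a scaling that moved the median difference of all probe sets in BALB/cByJ from 0 to -0.15 and in C57BL/6J from -0.02 to 0.10. Among 32 fits that each left out 1 array, this BALB/cByJ call passed in 5 and did not in 27. The 5 were without array 1 of BALB/cByJ, array 2 of C57BL/6J, array 2 of DBA/2J, array 1 of FVB/NJ or array 2 of SJL/J. Without array 2 of BALB/cByJ, C57BL/6J was the lowest strain for Gabrb1. The same held with quantile normalization of the arrays. For Gabrb1 C57BL/6J differed from the others by -0.44 ± 0.15 (SE) (adjusted p = 0.18, and 0.015 with the block), where 3.61% were called lower with the block. Of the 28 pairs of strains 0 were called for Gabrb1 by limma, and 9 were called with the block, against 6.13% of all combinations. Without the block 10 pairs had an unadjusted p under 0.05, and the share of all combinations under that limit was not counted. Within days the C57BL/6J array differed from the other strains by -0.36, -0.79, -0.41 and -0.30 on days A to D, and the BALB/cByJ array by -0.13 on day A, -0.87 on day B and, against 1 other array, -0.38 on day E. The second preparation of Gabrb1 was higher in 7 of 8 strains, by a median of 0.22.

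Gabrb2 encodes the beta2 subunit, found in the most abundant receptor type of the adult brain. Its probe set (mean signal 66.3) did not pass the F-test (limma, adjusted p = 0.59, and 0.21 with the block). Strain means ran from 5.62 ± 0.13 in DBA/2J and 5.70 ± 0.25 in C57BL/6J to 6.41 ± 0.22 in SJL/J (SD, n = 2 each), a range of 0.79 or 1.73-fold. The DBA/2J arrays read 5.39, 5.67, 5.65 and 5.76, and those of SJL/J 6.19, 6.32, 6.59 and 6.53. Of the variance of Gabrb2, 78.4% lay between arrays of a preparation and 15.4% between strains. In BALB/cByJ alone the arrays spanned 4.46 to 6.44. DBA/2J differed from the other strains by -0.44 ± 0.22 (SE, adjusted p = 0.56) and SJL/J by 0.47 ± 0.22 (SE, adjusted p = 0.91).

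Gabrg1, which encodes the gamma1 subunit, is the neighbour of Gabra2 in the cluster. Its probe set (mean signal 33.0) did not pass the F-test either (limma, adjusted p = 0.69, and 0.22 with the block). C57BL/6J was the lowest strain at 4.52 ± 0.49 and FVB/NJ the highest at 5.48 ± 0.22 (SD, n = 2 each), a range of 0.96 or 1.94-fold. The C57BL/6J arrays of Gabrg1 read 3.95, 4.40, 5.17 and 4.57 and the FVB/NJ arrays 5.01, 5.63, 5.82 and 5.46, so that both groups overlapped. Its difference in C57BL/6J was -0.51 ± 0.30 (SE, adjusted p = 0.53). Strain held 9.83% of the variance of Gabrg1 and arrays of a preparation 65.4%, and the second preparation was higher in 7 of 8 strains by a median of 0.41.

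**Figure D4:**
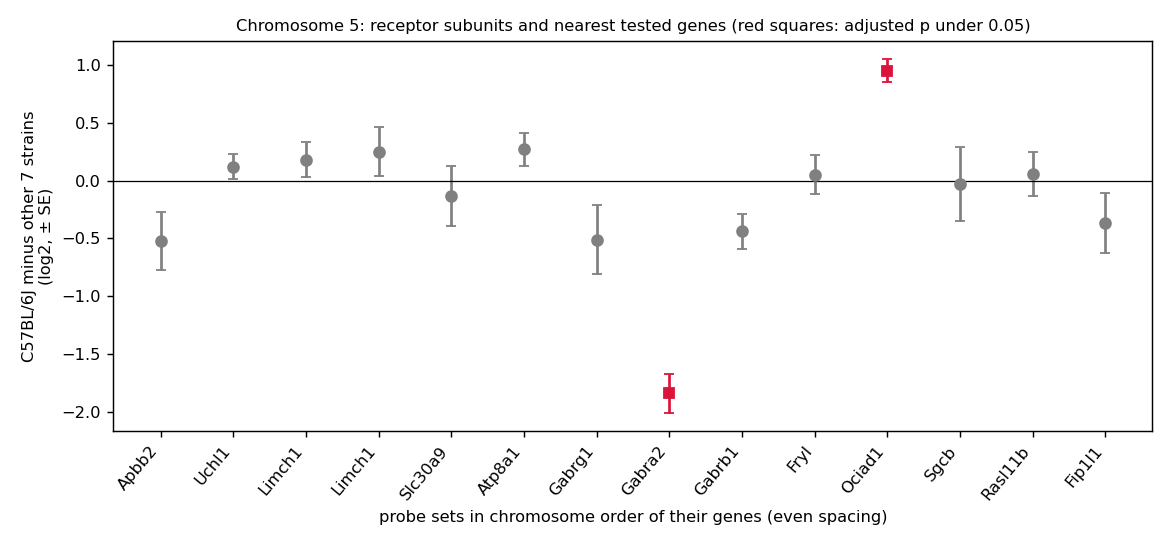
Difference between C57BL/6J and the other 7 strains (log2, with its SE) for Gabrg1, Gabra2 and Gabrb1 and the 5 nearest tested genes on each side, in chromosome order with even spacing. Red squares mark an adjusted p under 0.05. Gabra2 at -1.84 and Ociad1 at 0.95 stand apart from the other probe sets, which lie between -0.52 and 0.27.

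In cluster order, the differences of C57BL/6J from the other strains were -0.51 for Gabrg1, -1.84 for Gabra2 and -0.44 for Gabrb1. Of the 10 nearest tested genes around the cluster, measured by 11 probe sets, 1 passed the F-test, where 4.63% of all tested probe sets did. It was Ociad1, named here after its values were seen, which was higher in C57BL/6J at 10.8 against 9.83 (0.95 ± 0.10 SE, limma adjusted p = 8.4e-05), where 0.899% of tested probe sets were called higher in that strain. With the preparation block 2 of the 10 passed, Ociad1 and Atp8a1, against 18.9% of all.

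C57BL/6J was the lowest or second lowest strain for 4 of the 5 tested subunits, Gabra2, Gabrb1, Gabrb2 and Gabrg1, where 31.3% of all tested probe sets had it there. BALB/cByJ held such a rank for 4 of the 5 too, against 36.9% of all. Over the 8 strain means, Gabra2 and Gabrb1 had a Pearson correlation of 0.80, and of 0.92 over the 7 strains without C57BL/6J. Gabra2 and Gabrb2, which lies outside the chromosome 5 cluster, had 0.67, and 0.77 without C57BL/6J. Gabra2 and Gabrg1 had 0.62, and 0.31 without C57BL/6J, while Gabra2 and Gabra3 had 0.05, and 0.37 without C57BL/6J. Gabrb1 and Gabrb2 had 0.76, and 0.68 without C57BL/6J. These correlations are a description: the strain means share their arrays and preparations.

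Among other genes of GABA signalling, most of those tested did not pass the F-test. Of 12 further GABA-A subunit genes, 4 had a probe set, Gabrd, Gabrg3, Gabrr1 and Gabrr2, and all were below the limit for testing. Of 26 genes for anchoring and trafficking of the receptor, 15 were tested and 0 passed the F-test by limma. An unadjusted p under 0.05 was found for 2, and the share of all tested probe sets under that limit was not counted. The preparation block let 4 pass, where 18.9% of all tested probe sets passed. The widest ranges there were 0.97 for Trak2, a motor adaptor (adjusted p = 0.38), and 0.91 for Rdx, the anchor radixin (adjusted p = 0.5, and 0.036 with the block). Of 7 tested genes for synthesis, transport and breakdown of GABA and for chloride balance, 2 passed, and 4 with the block, against 4.63% and 18.9% of all tested probe sets. Slc32a1, the vesicular GABA transporter, was lowest in DBA/2J at 6.89 ± 0.30 with the next strain at 8.68 and C57BL/6J highest at 9.12 ± 0.14 (limma, adjusted p = 0.00031). Dbi, a peptide that binds at the benzodiazepine site, was highest in C57BL/6J at 9.52 ± 0.15 and lowest in BALB/cByJ at 8.66 ± 0.04 (SD, n = 2 each, limma adjusted p = 0.014). C57BL/6J was called against the other 7 strains for neither Slc32a1 (adjusted p = 0.16) nor Dbi (adjusted p = 0.069), and the next highest strain means were 9.09 and 9.49. The GABA-B receptor subunit Gabbr1 had a range of 0.49 (adjusted p = 0.62). Among 5 tested genes of glycine receptors and other channels of the same superfamily, 1 passed, and 2 with the block, beside the same shares of all probe sets. It was Glrb, the glycine receptor beta subunit, at 8.59 ± 0.13 in BALB/cByJ and 9.50 ± 0.07 in C57BL/6J (SD, n = 2 each, limma adjusted p = 0.012).

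**Figure D5:**
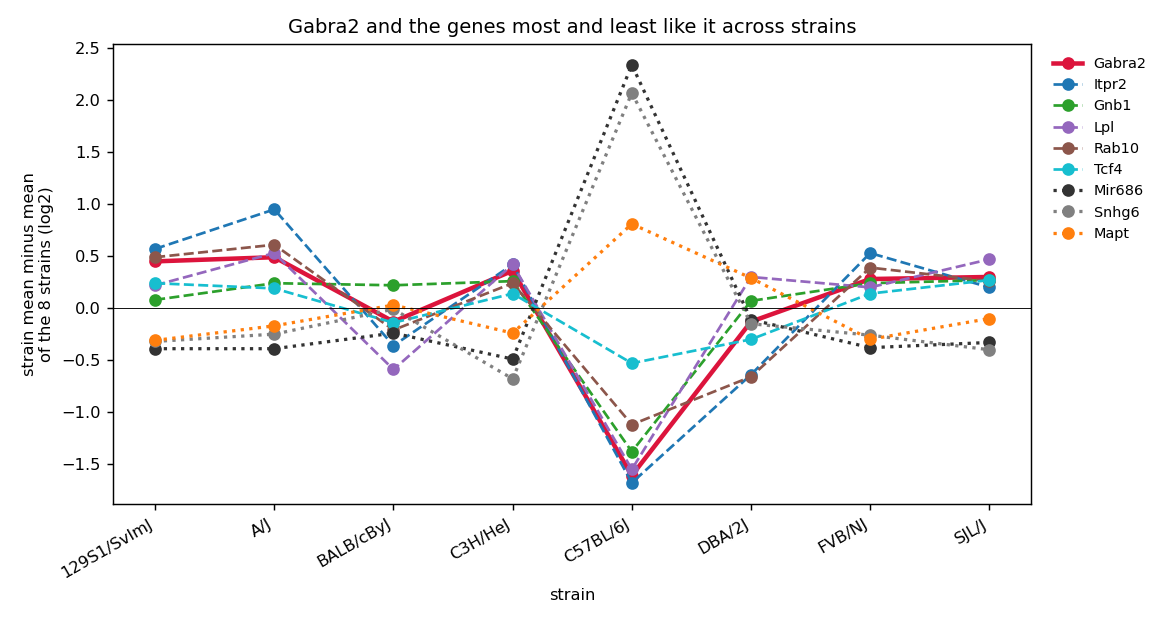
Strain means minus the mean of the 8 strains (log2) for Gabra2 and for the genes with the highest (dashed) and lowest (dotted) correlation with it, 1 probe set per gene. C57BL/6J is the extreme strain for all 9 genes shown, and without it the correlation with Gabra2 is 0.96 for Itpr2.

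Likeness to Gabra2 was measured as the Pearson correlation over the 8 strain means, among the 290 single-symbol probe sets of other genes that passed the F-test, of which 7 reached 0.9. The highest were Itpr2, an inositol trisphosphate receptor (0.95), 3 probe sets of Gnb1, a G protein beta subunit (0.94, 0.94 and 0.93), Lpl, lipoprotein lipase (0.93), Rab10, a small GTPase of membrane traffic (0.91), and the transcription factor gene Tcf4 (0.90). Without C57BL/6J the correlation was 0.96 for Itpr2, 0.94 for Rab10, 0.92 for Tcf4 and 0.66 for Lpl, and 0.15 to 0.29 for Gnb1. Itpr2 ran from 3.54 in C57BL/6J to 6.17 in A/J, by a probe set whose suffix _f_at marks probes shared with other transcripts. The lowest correlations with Gabra2 were -0.97 for Mir686, -0.96 for Snhg6 and -0.95 for Mapt, the gene of tau, and without C57BL/6J they were -0.85, -0.62 and -0.84. Mir686 is the annotated symbol of a probe set on this array, and no mature microRNA was measured. Likeness to Gabrb1 was taken among 1245 probe sets past the F-test with the block, of which 7 reached 0.9. The highest were Btbd3 (0.98), the transcription factor Mef2a (0.97), the AMPA receptor subunit Gria3 (0.93), Naa15 (0.93) and B4galt6 (0.92), and these stayed at 0.88 to 0.97 without C57BL/6J. The lowest for Gabrb1 were Atg16l1 (-0.89), Rgs5 (-0.88) and Bin1 (-0.88).

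Some single genes of the marker lists, for hippocampal neurons and for other cells and regions, were also called in C57BL/6J, the strain with low Gabra2. The levels of whole marker lists were not tested. The mean log2 level over a list's probe sets was taken for each array. For 6 choroid plexus probe sets it was 4.16 to 5.01 on C57BL/6J arrays and 4.53 to 5.44 on the others, and for 13 thalamic ones 4.99 to 5.41 and 5.17 to 5.68. C57BL/6J had the lowest strain mean in both lists. For 13 oligodendrocyte probe sets the level was 7.34 to 7.56 on C57BL/6J arrays and 6.97 to 7.48 on the others, and for 10 microglial ones 6.69 to 6.95 and 6.0 to 6.89. There C57BL/6J had the highest strain mean. In all these lists the arrays of C57BL/6J overlapped with those of other strains, as they did for interneuron markers (6.55 to 6.90 and 6.25 to 6.87), hippocampal neuron markers (6.48 to 6.94 and 6.28 to 7.14) cerebellar markers (4.36 to 4.85 and 4.34 to 5.15) and blood markers (6.66 to 6.93 and 6.36 to 7.70). No probe set of these lists was at the floor on all 4 C57BL/6J arrays. Of all tested probe sets, 1.33% were called lower in C57BL/6J and 0.899% higher. Called lower were Ttr, the choroid plexus transport protein transthyretin (-1.60, limma adjusted p = 3.2e-05), and Neurod1 (-1.30, adjusted p = 0.0026). Neurod1 was 1 of 5 tested genes of the cerebellar list, and the others lay between -0.35 and 0.37, not called. A place on that list does not show which cells the signal came from. Hbb-b2 of the blood list was called (-0.97, adjusted p = 0.004), at 6.23 with the next strain at 6.34. Hba-a1 was not called (-0.07, adjusted p = 0.92). Camk2a of the hippocampal list, named after its values were seen, was called on 1 of 2 probe sets (-0.65, adjusted p = 0.024). DBA/2J was lower than C57BL/6J on each of these 2. No thalamic probe set was called. The myelin genes Mag (0.85, adjusted p = 0.0029) and Mobp (0.85, adjusted p = 0.0073) were called higher, each on 1 probe set while their other probe sets were not called. The microglial gene C1qc, named after its values were seen, was also called higher (0.78, adjusted p = 0.019). The other tested microglial probe sets lay between -0.23 and 1.38 and were not called. A/J had the highest Gabra2 mean but was not called against the other strains for it. Nrgn and Ctss passed the F-test with A/J at the top (10.50 and 8.80). Penk passed with A/J lowest at 6.92 on 1 probe set, while its other tested probe set did not pass (limma F-test, adjusted p = 0.98). Of 10 tested interneuron marker genes 0 passed the F-test by limma. An unadjusted p under 0.05 was found for 4, and the share of all tested probe sets under that limit was not counted. The preparation block let 4 pass, Reln among them (1.30 between BALB/cByJ and the eighth strain, adjusted p = 0.16, and 0.00026 with the block). With the block 18.9% of all tested probe sets passed. The part of these marker differences in the Gabra2 result was not tested.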

How the data were processed

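The authors deposited linear intensities for each probe set on each array, produced by MAS5 according to the submitters' processing notes. The sources used here name no version, scaling target or detection calls. Strain and array number came from the titles. The strain called the eighth in the results is 129S1/SvImJ. The series design assigns arrays 1 and 2 to the first cRNA preparation and arrays 3 and 4 to the second. Gene symbols came from the platform annotation, where 10833 probe sets had 1 symbol, 396 several and 1193 no entry; 10817 matched RefSeq (GRCm38.p6) by Entrez number. Probe-level values were not analysed here.

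The 66 control probe sets among 12488 were dropped. A floor of 1 was put on the signal, which touched 2.14% of values, before log2 was taken. Arrays of a preparation were averaged, giving 16 values, and limma 3.58.1 in R 4.3.3 fitted strain means for 7453 probe sets (eBayes with trend, 8 residual degrees of freedom). Strains were compared by an F-test, by the difference of each from the mean of the remaining strains, and in 28 pairs; each was adjusted by Benjamini-Hochberg over all probe sets tested, with a threshold of 0.05.

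The pairing by preparation number comes from the series design. Deviations of same-numbered preparations from their strain means correlated at 0.115 to 0.549 over the 28 pairs of strains (median 0.378). The fit with that number as a block is printed beside results whose call it changed. Tested on data simulated for the C57BL/6J contrast over 7453 probe sets, the contrast recovered 68% of changes of 1 and 95% of changes of 2 on the log2 scale, with 15 false calls, and the F-test recovered 20% and 68%. In the simulation only C57BL/6J differed from the other strains, and preparations shared no shift across strains. The real data differ in both respects, so these rates hold for the simulated setting only. The number of arrays limits the precision.

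The members, gene lists and tests were chosen with earlier results of these data known. Named genes were all members, other GABA-related genes past the F-test (or the 2 of widest range), the 5 most and 3 least correlated genes for each member past it, marker genes past the F-test with the same extreme strain as Gabra2, and cluster neighbours. The rule also named the marker gene of highest signal in each list, which was left out of the text because levels of different probes cannot be compared. Promoter windows came from RefSeq. Alternatives covered scaling, filter, offset, replicate unit, day, variance trend and left-out samples.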

Additional observations from a re-analysis of the deposited data

Results flagged for a closer look

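In each of 56 groups, the 4 arrays of 1 strain for 1 probe set, the highest or lowest array was compared with the other 3. By Dixon's criterion 6 groups held an array far from the others. Its rate by chance, about 1 in 20 groups, holds for independent arrays. Here arrays of a group share preparations, and the same arrays recur across probe sets, so the count cannot be set against that rate. For Gabra2, array 2 of the eighth strain read 8.86 against 8.47 to 8.52 on the other 3. For Gabra3, array 1 of FVB/NJ read 1.77 against 5.08 to 5.34. For Gabrb1, array 2 of BALB/cByJ read 8.56 against 9.38 to 9.53, and array 2 of SJL/J read 9.45 against 9.88 to 9.96. For Gabrb2, array 2 of BALB/cByJ read 4.46 against 6.19 to 6.44, and array 1 of C57BL/6J read 5.20 against 5.83 to 5.92. All of these arrays were of the first preparation by their number. Array 1 of FVB/NJ and the arrays of BALB/cByJ and SJL/J named here also had high sense-strand controls. The part of these controls in the values was not tested.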

How the results depend on the processing

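The low Gabra2 signal of C57BL/6J kept its direction and its call in all 64 alternatives: -1.90 to -1.33 (adjusted p up to 0.00054) over 16 settings, -2.03 to -1.64 (up to 0.0035) without 1 preparation and -1.89 to -1.78 without 1 array. Without a preparation of a strain, its lone value was taken to vary like the other strains. The smallest size came with an offset of 64 added to the signal. No result reversed.

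The count of subunit probe sets past the F-test was 1, and 2 with the preparation number as a replicate block, with single arrays as units and with single arrays and the day as a block. It was also 2 in 2 fits chosen after seeing the data, the block without a filter and the block with array 2 of FVB/NJ in the second preparation. The added gene was Gabrb1 each time, and leaving out 1 preparation or array gave 1 throughout. The count of calls of a strain against the other 7 was 1. It was 2 with arrays centred on their median or with 40% of probe sets tested, 4 with the replicate block, 5 with single arrays, 7 with single arrays and the day, 6 with the block and no filter, and 3 with the block and array 2 of FVB/NJ moved. It was 1 to 2 when 1 preparation or 1 array was left out. For the subunits, the replicate block changed no call other than those printed with it. Over all probe sets the F-test called 345, and 1410 with the block, 1387 with single arrays, 2329 with the day and 161 without the arrays of high sense-strand controls. The cause of these differences was not tested. Single arrays of a preparation are not independent, and 1 RNA pool per strain gives no spread between animals.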
